A study of Mus musculus with 7 samples.

Results

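The departure from additivity of a pair of antibodies, DC101 and 4H2, was measured for 13998 of the 21892 genes listed, in 4 of the 7 libraries of the study. DC101 is directed against VEGFR2, the product of Kdr, and 4H2 against PD-1, the product of Pdcd1. With L = log2(TPM + 1), where TPM is a gene's transcripts as a length-corrected share of the library, the departure of a gene was L with both antibodies, minus L with 4H2 alone, minus L with DC101 alone, plus L with vehicle. Genes were kept where their mean TPM over the 7 libraries was at least 1. At that limit, Spin2c had a mean of 1 TPM and was kept with a departure of 0.43, and Rgs8 had a mean of 0.986 TPM and was left out with a departure of −0.31. All libraries came from tumors with Egfr exon 19 deletions, passaged under the skin of C57BL/6J mice and labelled as lung tumor of strain C57BL/6. The 4 groups compared here share 14 days of gefitinib, an EGFR kinase inhibitor, and were taken at day 21, after 7 further days without it. In those 7 days they received vehicle (given as no treatment in the treatment label), DC101, 4H2, or DC101 together with 4H2. The other 3 libraries were untreated at day 3, on gefitinib for 3 days, or on gefitinib for 14 days. Each group is 1 library of bulk tissue, how many animals stand behind a library is not stated in the labels, and no difference below has a replicate, an error or a p-value.

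VEGFR2 is the main signaling receptor for VEGF-A on endothelial cells, and its blockade prunes growing tumor vessels. PD-1 is an inhibitory receptor of activated T cells, and blocking it releases their cytotoxic program and interferon gamma production. In a design of this shape a departure of 0 means that the fold difference made by DC101 was the same in the absence and in the presence of 4H2, and equally that the fold difference made by 4H2 was the same with or without DC101. A departure of 1 means that the combination library lay 2-fold above the product of the separate fold differences on the log2(TPM + 1) scale, and −1 that it lay 2-fold below. Genes at or above 1 are called above additive here and genes at or below −1 below additive.

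The tissue label was checked against marker lists. Summed over 18 epithelial keratin and junction genes, the vehicle library held 8531 TPM and the DC101 library 5745 TPM, against 59.8 TPM with 4H2 and 482 TPM with both. Skeletal muscle fiber genes went the other way, with 3831, 21642, 101232 and 102510 TPM in the same order, or 10.1% and 10.3% of all TPM in the 4H2 and combination libraries. The 4H2 library therefore held little of the epithelial RNA that defines a lung tumor, and both 4H2-treated libraries held much muscle RNA. In these bulk samples fewer cells of a type and less RNA per cell cannot be told apart. Sequencing depth cannot be read from TPM and is unknown here.

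Across the 13998 genes the median departure was 0.11, and 72.2% of genes lay between −0.5 and 0.5. The 5th and 95th percentiles were −0.72 and 1.24. Above additive were 1017 genes, or 7.27% of those measured, and below additive were 433, or 3.09%. Just around these limits stood Plac9a at 1.002 and Smpd3 at 0.998, and Lmcd1 at −1.005 and Anapc13 at −0.998. The scale has a floor on the upper side. For 241 genes the sum of the separate differences predicted less than 0 TPM, so that the departure had to be positive, and 168 of these were above additive. Among the 8059 genes with at least 10 TPM in all 4 libraries, where that floor is remote, 156 were above and 127 below additive.

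Because the departure weighs the 4 libraries equally, the library lying farthest from the median of the other 3 was recorded for each of the 1450 genes outside the limits. Of the 1017 above additive, 596 (58.6%) had the 4H2 library low, 199 (19.6%) the combination high, 179 (17.6%) the vehicle high and 43 (4.23%) the DC101 library low. Of the 433 below additive, 333 (76.9%) had the vehicle library low, 46 the 4H2 library high, 35 the combination low and 19 the DC101 library high. In most of these genes the 4H2 or the vehicle library was thus the farthest, and in fewer the combination. The other 3 libraries need not lie close together. The keratin gene Krt8, with 4H2 low, was at 1731, 1024, 6.6 and 72.7 TPM with vehicle, DC101, 4H2 and both. The muscle gene Myh4, with vehicle low, was at 177, 1619, 7684 and 7109 TPM.

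**Figure D1:**
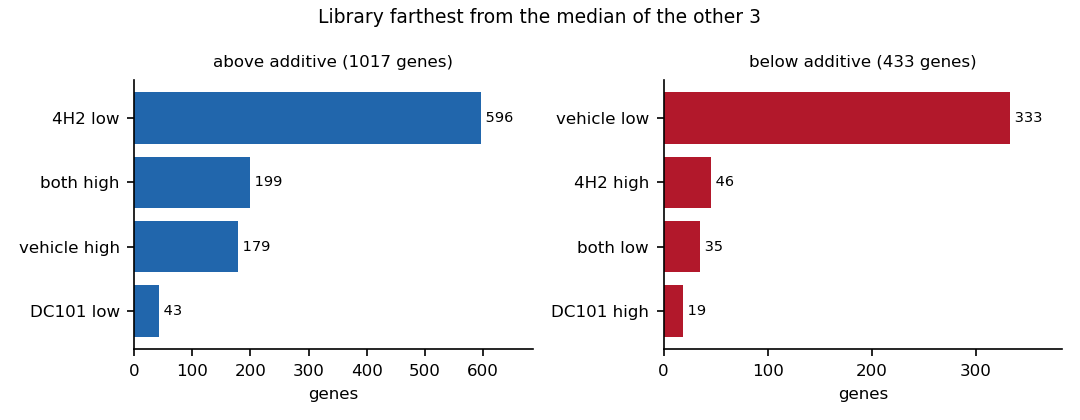
Number of genes above additive (left, 1017 genes) and below additive (right, 433 genes) by the day 21 library that lay farthest from the median of the other 3; the x axis counts genes. The 4H2 library low (596) and the vehicle library low (333) are the longest bars.

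The DC101 differences were smaller than the 4H2 differences and correlated less without and with the other antibody. Interquartile ranges were 0.33 without and 0.40 with 4H2 for DC101, and 1.20 without and 1.06 with DC101 for 4H2. With 1 library per group, the part of this smaller spread in the low DC101 correlation was not tested. The DC101 difference without 4H2 and that with 4H2 had a Pearson correlation of 0.077 and a Spearman correlation of 0.046 over the 13998 genes. These 2 differences share no library, and genes are not independent replicates. The 4H2 difference without DC101 and that with DC101 had correlations of 0.876 (Pearson) and 0.883 (Spearman). The log2 difference made by DC101 was at or above 1 in 3.11% of genes and at or below −1 in 1.1% without 4H2, and in 4.88% and 0.457% with it. It was at or above 1 both times for 57 genes and at or below −1 both times for 6. The difference made by 4H2 was at or above 1 in 10.9% and at or below −1 in 19.9% without DC101, and in 11.0% and 14.2% with it. It was at or above 1 both times for 1084 genes and at or below −1 both times for 1811.

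**Figure D2:**
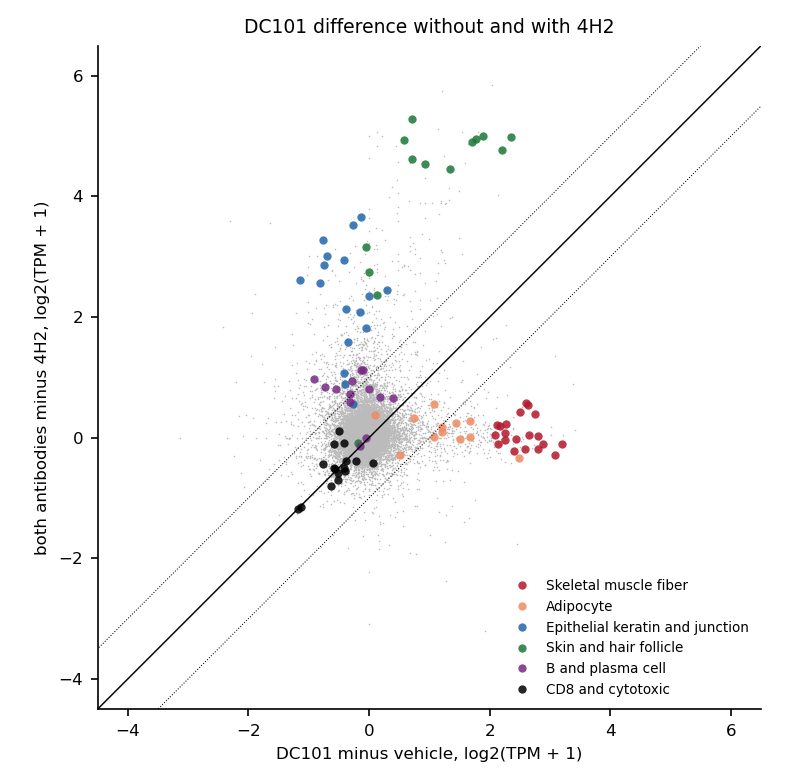
Difference made by DC101 without 4H2 (x axis, DC101 minus vehicle) and with 4H2 (y axis, both antibodies minus 4H2), in log2(TPM + 1), 1 point per gene, with 6 lists in color; the solid line marks a departure of 0 and the dotted lines 1 and −1. Muscle genes lie far to the right near 0 on the y axis, epithelial and skin and hair genes lie high, and CD8 genes lie near the solid line.

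Departures were grouped by 50 lists of marker and pathway genes. Over all genes 7.27% were above and 3.09% below additive, the shares to set beside each list count below. The median departure was at or above 1 in 9 lists, at or below −1 in 2, and between −0.5 and 0.5 in 30. The lists farthest above 0 were skin and hair follicle (3.16), epithelial keratin and junction (2.51) and squamous and cornified envelope genes (2.36). Farthest below 0 were skeletal muscle fiber (−2.33) and adipocyte genes (−1.10). The T cell receptor complex, CD8 and cytotoxic, inhibitory checkpoint, MHC class I and reference gene lists had medians between −0.05 and 0.11, beside 0.11 over all genes. These counts depend on the pseudocount added before the logarithm. With 5 in place of 1 the median was at or above 1 in 4 lists and at or below −1 in 1, and the medians of the B and plasma cell (0.64), alveolar type 1 (0.62), alveolar type 2 (0.89), gastric and gut (0.94), ErbB (0.81) and adipocyte (−0.68) lists no longer reached the limits.

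**Figure D3:**
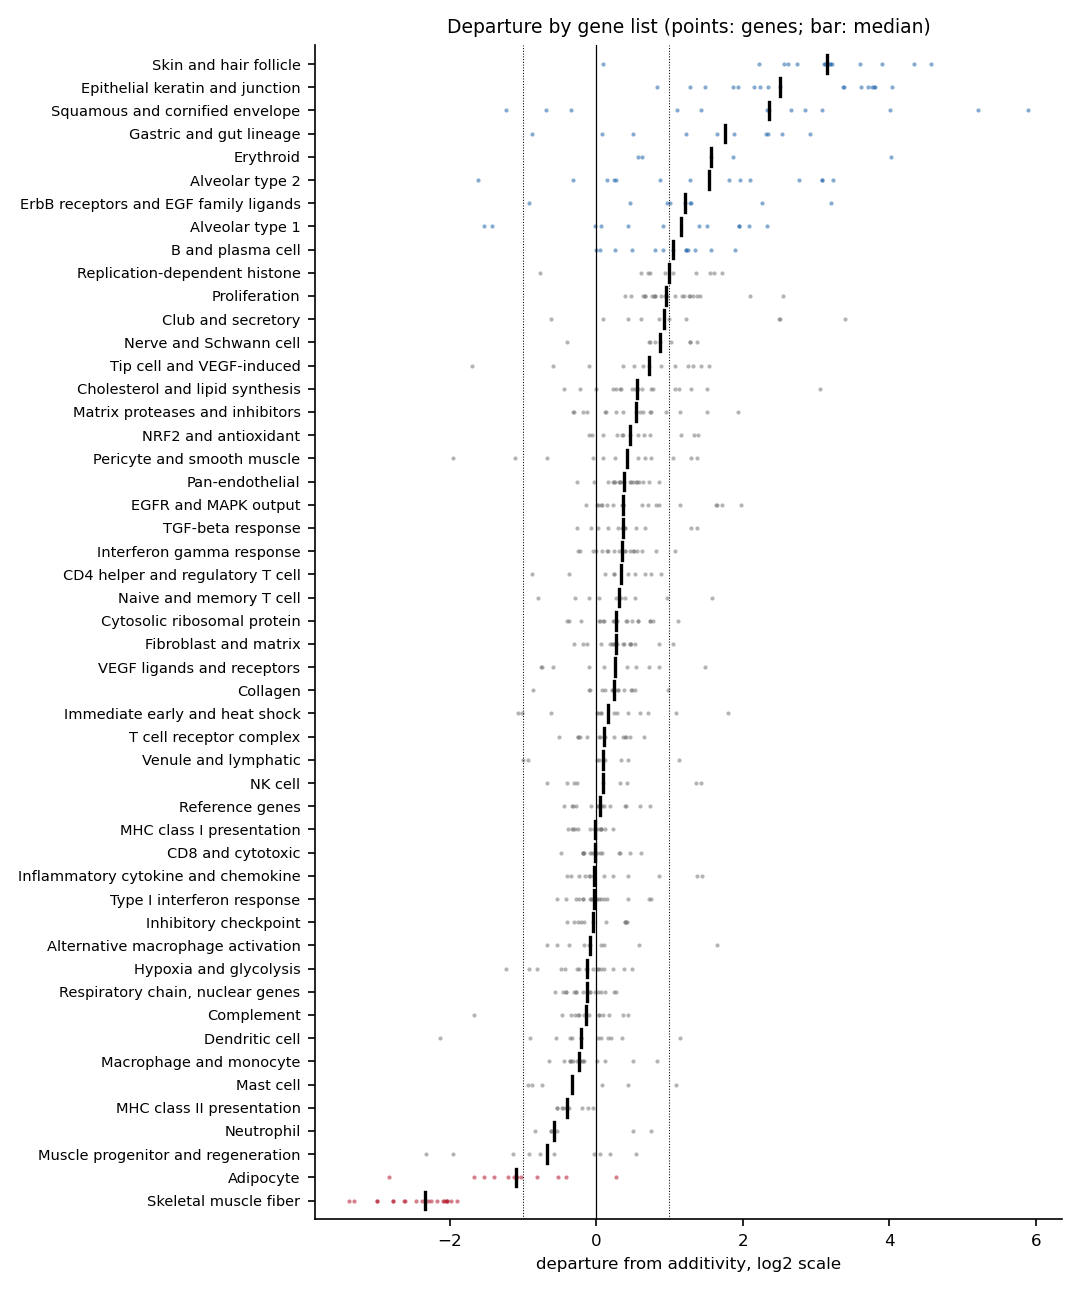
Departure from additivity (x axis, log2 scale) of the measured genes of each of 50 lists, ordered by their median (bar); points are genes, and dotted lines mark 1 and −1. The skin and hair follicle median stands highest at 3.16 and the skeletal muscle fiber median lowest at −2.33; among immune lists the B and plasma cell median was 1.04 and the CD8 and cytotoxic median −0.02.

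All 20 skeletal muscle fiber genes were below additive, against 3.09% of all genes, with departures from −3.37 to −1.90. Pvalb, the calcium buffer parvalbumin of fast fibers, was at 80.7 TPM with vehicle, 691 with DC101, 3828 with 4H2 and 3133 with both, a departure of −3.37. Myh4, the fast IIb myosin heavy chain, was, in that order, at 177, 1619, 7684 and 7109 TPM, a departure of −3.30. Both genes were lowest with vehicle, intermediate with DC101, and highest and alike in the other 2 libraries. Ckm, muscle creatine kinase, was at 345, 2416, 11344 and 11562 TPM, a departure of −2.78. On the log scale the separate differences would have put Ckm at 79280 TPM. The combination library lay far under that value although it held as much Ckm as the 4H2 library. On the linear TPM scale the shortfall was smaller, with a departure of −1853 TPM for Ckm. The summed list was at 102510 TPM with both, against an additive 119044 TPM on that scale. Casq1, the calcium store protein calsequestrin of the sarcoplasmic reticulum, was at 35.6, 254, 1434 and 1258 TPM (−2.99). Actn3, the Z-disc actinin of fast fibers, was at 58.7, 440, 1828 and 1707 TPM (−2.98), and Tnnt3, fast troponin T, at 185, 1110, 5304 and 4641 TPM (−2.77). The vehicle library was the lowest of the 4 for each of the 20 genes. The median DC101 difference over the list was 2.54 without 4H2 and 0.04 with it, and the median 4H2 difference 4.70 without DC101 and 2.28 with it.

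Because these genes moved together, their promoters were searched for CAGCTG, an E-box that reads the same on either strand and is the core of sites bound by myogenic factors such as MyoD and myogenin. RefSeq promoters of GRCm38.p6, 250 bases before to 50 after the start, were matched for 15 of the 20 genes. The letters were found in 10 of their 18 promoters (55.6%), of which 2 are overlapping promoters of Mb with the same site, and in 16.3% of all 32851 promoters of that length. Neither promoter of Pvalb holds them. A match describes these letters only. The promoters of 4 of the genes described above follow, 3 with a match, CAGCTG in capitals, and that of Pvalb without one. They are that of Pvalb at chr15:78206351-78206650 on the minus strand, that of Casq1 at chr1:172219846-172220145 on the minus strand, that of Myh4 at chr11:67237562-67237861 on the plus strand and that of Ckm at chr7:19410844-19411143 on the plus strand.
Pvalb: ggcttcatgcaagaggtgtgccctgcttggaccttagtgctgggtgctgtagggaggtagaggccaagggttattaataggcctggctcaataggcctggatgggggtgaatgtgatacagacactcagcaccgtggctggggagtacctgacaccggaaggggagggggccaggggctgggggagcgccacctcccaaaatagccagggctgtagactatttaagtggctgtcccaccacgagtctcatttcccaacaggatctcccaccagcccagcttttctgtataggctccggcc
Casq1: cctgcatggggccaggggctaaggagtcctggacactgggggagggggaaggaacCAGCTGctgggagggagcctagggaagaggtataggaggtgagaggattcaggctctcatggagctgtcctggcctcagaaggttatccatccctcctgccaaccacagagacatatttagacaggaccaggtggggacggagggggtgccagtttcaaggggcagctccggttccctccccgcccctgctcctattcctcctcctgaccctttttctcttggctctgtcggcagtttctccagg
Myh4: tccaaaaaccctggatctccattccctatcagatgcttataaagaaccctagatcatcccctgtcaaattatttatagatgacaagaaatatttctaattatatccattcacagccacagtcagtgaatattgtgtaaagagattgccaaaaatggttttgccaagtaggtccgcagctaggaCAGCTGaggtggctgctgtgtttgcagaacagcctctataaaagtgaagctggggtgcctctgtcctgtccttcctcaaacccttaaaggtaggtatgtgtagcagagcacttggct
Ckm: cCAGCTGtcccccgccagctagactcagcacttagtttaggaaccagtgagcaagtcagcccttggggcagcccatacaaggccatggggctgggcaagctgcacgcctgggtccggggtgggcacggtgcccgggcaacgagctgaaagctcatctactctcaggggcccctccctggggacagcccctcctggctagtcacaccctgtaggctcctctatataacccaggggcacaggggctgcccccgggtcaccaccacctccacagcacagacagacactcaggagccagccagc

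The lowest departure of all, −6.03, was that of Rps27rt, a ribosomal protein gene copy whose reads are uncertain. Among named genes outside the list, chosen without predicted, ribosomal protein and other excluded genes, the lowest departures were mostly of further muscle genes. Mstn, myostatin, the muscle-made inhibitor of muscle growth, was at 1 TPM with vehicle, 20.2 with DC101, 130 with 4H2 and 143 with both (−3.28). Ampd1, the muscle AMP deaminase, was at 3, 31.3, 140 and 144 TPM (−2.97). Dhrs7c (−3.17), Ky (−2.87), Mlf1 (−2.86) and Mylk4 (−2.83) had the same order of libraries, with vehicle lowest, DC101 next, and 4H2 and both near each other. On a linear TPM scale, without logarithms, the departure of Mylk4 was 0.2 TPM, so its sign rests on the log scale.

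Among 10 genes of muscle progenitors and regeneration, 3 were below additive and none above, with a median of −0.67. Myf6, a myogenic transcription factor, was at 3.3, 17.4, 79.4 and 67.8 TPM with vehicle, DC101, 4H2 and both (−2.32). Desmin, Des, the intermediate filament of muscle, was at 208, 724, 3063 and 2745 TPM (−1.95), and myogenin, Myog, at 6.5, 16.9, 52.9 and 57.6 TPM (−1.13). Myod1 (−0.92), Chrna1, a subunit of the muscle acetylcholine receptor (−0.77), and Cdh15 (−0.58) were within the limits but had vehicle lowest as well. Ncam1 (0.55) and embryonic myosin Myh3 (0.19) had the opposite sign.

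Of 12 adipocyte genes, 8 were below additive and none above, with a median of −1.10. Car3, a carbonic anhydrase of fat that is also abundant in skeletal muscle, was at 159 TPM with vehicle, 892 with DC101, 6934 with 4H2 and 5493 with both, the lowest departure of the list at −2.82. Genes more particular to fat had smaller departures. Cfd, the secreted factor adipsin, was at 50.9, 164, 403 and 404 TPM (−1.66), and Adipoq, the hormone adiponectin, at 3.1, 8.5, 31.3 and 33.4 TPM (−1.12). Lpl, lipoprotein lipase, was at 77.9, 251, 406 and 494 TPM (−1.39), Retn, resistin, at 1, 4.7, 18.4 and 18.2 TPM (−1.53), and Plin4, a lipid droplet coat protein, at 9, 26, 78.8 and 92.9 TPM (−1.20). Each of these 6 genes was lowest with vehicle. Pparg, the master regulator of fat cell formation, was at 11.5, 12.4, 10 and 13.2 TPM, a departure of 0.27.

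Genes of other kinds stood among the lowest departures. Ngfr, the low-affinity neurotrophin receptor of nerve-supporting and stromal cells (chr11:95568818-95587698), was at 11.2 TPM with vehicle, 28.1 with DC101, 28.2 with 4H2 and 7.8 with both (−2.98). DC101 alone was thus 2.51-fold and 4H2 alone 2.52-fold above vehicle, and the combination was the lowest of the 4. Ppp1r3c, a targeting subunit that directs protein phosphatase 1 to glycogen, was at 10, 31.8, 121 and 45 TPM (−2.98). Ppp1r1a, an inhibitor of protein phosphatase 1, was at 1.3, 6.8, 38.8 and 18.5 TPM (−2.79). For all 3, DC101 was above vehicle without 4H2 and below 4H2 alone in its presence.

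**Figure D4:**
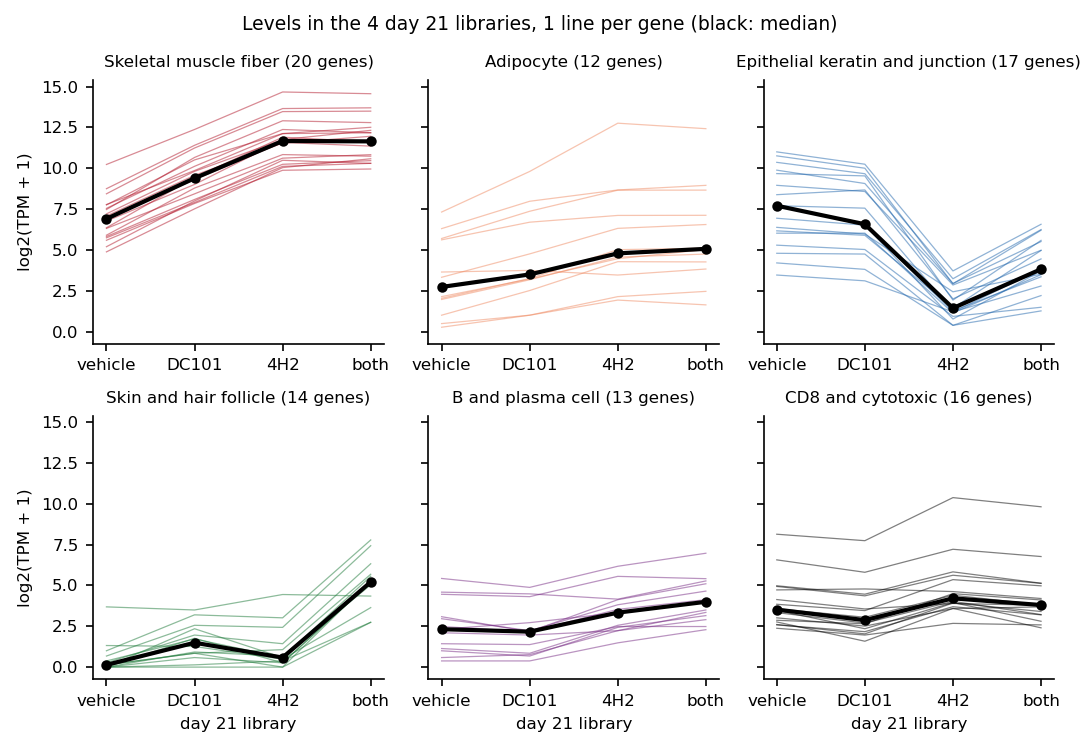
Levels in log2(TPM + 1) (y axis) of the measured genes of 6 lists in the vehicle, DC101, 4H2 and combination libraries of day 21 (x axis), 1 thin line per gene, with the list median in black; lines join separate libraries and are not a time course. Muscle and adipocyte genes are lowest with vehicle, epithelial genes lowest with 4H2, skin and hair genes highest with both antibodies, and CD8 genes highest with 4H2.

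Of 17 epithelial keratin and junction genes, 16 were above additive, against 7.27% of all genes, and all 17 had the 4H2 library lowest. Krt8, a simple epithelial keratin, was at 1731 TPM with vehicle, 1024 with DC101, 6.6 with 4H2 and 72.7 with both, a departure of 4.03. Its partner Krt18 was at 2051, 1214, 12.1 and 93.9 TPM (3.61), and Krt19 at 1315, 811, 8.4 and 74.7 TPM (3.71). The combination was thus far under vehicle and under DC101, yet 11.0-fold above 4H2 for Krt8. Tight junction claudins followed the same order, with Cldn3 at 815, 739, 2.8 and 46.9 TPM (3.80) and Cldn4 at 209, 94.1, 1.3 and 13.1 TPM (3.76). Dsp, desmoplakin of desmosomes, was at 70.8, 58.4, 1.7 and 30.2 TPM (3.80). The median DC101 difference over the list was −0.38 without 4H2 and 2.45 with it. The summed level with both antibodies was 8.06-fold that with 4H2, and the vehicle sum 17.7-fold that with both.

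Alveolar type 2 genes, which make lung surfactant, had a median departure of 1.54, and 13 were lowest with 4H2. Of 14, 8 were above additive and 1 below, against 7.27% and 3.09% of all genes. Nkx2-1, the transcription factor of lung epithelium, was at 238, 201, 1.1 and 14 TPM with vehicle, DC101, 4H2 and both (3.08). Sftpb, surfactant protein B, was at 9561, 8722, 76.2 and 479 TPM (2.77), Sftpd at 725, 574, 6 and 46.1 TPM (3.09), and Sftpa1 at 88.2, 102, 0.6 and 16.4 TPM (3.23). Lamp3, of lamellar bodies, was at 173, 278, 0.9 and 12.1 TPM (2.10), and the phosphate transporter Slc34a2 at 297, 411, 2.6 and 18.4 TPM (1.96). On the linear TPM scale the departure of the last 2 was negative, at −94.2 and −98.1 TPM, and that of the summed list was −1933 TPM, since DC101 without 4H2 had added more TPM than it added to the near-empty 4H2 library. Napsa, the surfactant-processing protease, was at 1014, 1912, 54 and 82.5 TPM (−0.31). Ppp1r14c, listed here as a type 2 gene, was at 2.2, 8.8, 41.9 and 42 TPM (−1.61), the order of the muscle genes.

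Of the 12 measured alveolar type 1 genes 6 were above additive and 2 below, against 7.27% and 3.09% of all genes. The median was 1.16. Ager, chosen after its values were seen as were the genes of the following 3 sentences, marks flat type 1 cells and was at 627, 387, 11.6 and 29.2 TPM (1.96). Aqp5, a water channel of these cells, was at 381, 273, 7.1 and 21.4 TPM (1.95). Among club and secretory genes 5 of 10 were above additive, with a median of 0.93, which was 0.32 with a pseudocount of 5, 1.55 with a pseudocount of 0.1 and −1614 TPM for the sum on the linear scale. Wfdc2, a secreted antiprotease, was at 900, 718, 5.1 and 50.1 TPM (3.39), and Lcn2, the iron-carrier-binding lipocalin, at 268, 491, 1 and 19.7 TPM (2.50).

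Gastric and gut lineage genes, which are not part of normal lung, had a median of 1.76. Of 10, 7 were above additive, against 7.27% of all genes. Hnf4a, which regulates transcription in gut and liver epithelium, was at 52.3 TPM with vehicle, 31.5 with DC101, listed at 0 with 4H2 and at 3.6 with both (2.92). Vil1, villin of the brush border, was at 53.3, 44.2, 0.2 and 4.8 TPM (2.54), and Gkn2, a gastric mucosal protein, at 110, 85.2, 1.9 and 7.3 TPM (1.88). Foxa3 was at 29.2, 27.9, 0 and 2 TPM (1.65). The separate differences predicted −0.39 TPM for Hnf4a, −0.001 for Vil1 and −0.04 for Foxa3, so these departures had to be positive. Ctse had the same order of libraries, and Pyy did not. Ctse, cathepsin E, was at 15.8, 7.1, 2.2 and 6.7 TPM (2.32), so that the combination was near DC101 alone. Pyy, a gut hormone, was at 13.8 TPM with vehicle and 1.9 with DC101 and was listed at 0 in the other 2. Its departure of 2.35 was thus the difference between vehicle and DC101. The separate differences predicted −0.80 TPM for Pyy, so this departure had to be positive.

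The drug target Egfr was at 447 TPM with vehicle, 538 with DC101, 19.4 with 4H2 and 48.3 with both, a departure of 1.01. This value sits at the limit, and on the linear TPM scale it was −62.2 TPM. Among the 9 measured ErbB receptors and EGF family ligands 6 were above additive, against 7.27% of all genes, with a median of 1.22. Erbb2, the partner receptor of EGFR, was at 88, 75.6, 6.5 and 14.9 TPM (1.30), a gene chosen after its values were seen, as were those of the next sentence. The ligands Areg, at 179, 101, 1.5 and 12 TPM (3.20), and Hbegf, at 61.5, 24, 2.6 and 5.9 TPM (2.26), had larger departures than the receptors. The list of EGFR and MAPK output genes had 5 of 20 above additive and a median of 0.37.

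Of the 22 proliferation genes 10 were above additive, against 7.27% of all genes, with a median of 0.95. All 22 were on the positive side, beside 62.2% of all genes, and lowest with 4H2. Their summed level was 1546 TPM with vehicle, 1485 with DC101, 291 with 4H2 and 525 with both. Ccnb1, the mitotic cyclin, was at 35.7, 26.8, 1 and 7.9 TPM (2.55), and its kinase Cdk1 at 32.9, 32.1, 1 and 7.4 TPM (2.10), both chosen after their values were seen. Replication-dependent histone genes had a median of 0.99, with 5 of 10 above additive. The epithelial sum was likewise lowest with 4H2 and higher with both, and the part of epithelial content in the proliferation values was not tested.

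The gene with the highest departure of all, Krt17 (chr11:100256215-100261029), a keratin of hair follicles, basal cells and stressed epithelium, was at 113 TPM with vehicle, 22.2 with DC101, 3.4 with 4H2 and 52.2 with both (5.90). Each antibody alone was under vehicle, and the combination was 15.4-fold above 4H2 and over DC101. Sprr1a, a precursor of the cornified envelope, was at 78.7, 24.4, 3 and 46.1 TPM (5.21), the same order. Sprr2a2, which has near-identical copies that make its reads uncertain, was at 54, 13.9, 0.7 and 7.9 TPM (4.27). The separate differences predicted −0.11 TPM for Krt17 and −0.54 TPM for Sprr2a2, so both departures had to be positive. Of the 13 squamous and cornified envelope genes 10 were above additive and 1 below. They divided into those led by the vehicle and DC101 libraries, as Crct1 at 172, 186, 0.8 and 15.5 TPM (3.09) and involucrin, Ivl, at 28.5, 31.2, 0.3 and 8 TPM (2.67), and those led by the combination. The second kind included the basal keratins Krt5, at 0.6, 2.3, 0.7 and 24.3 TPM (2.85), and Krt14, at 3.7, 7, 1.9 and 24.3 TPM (2.36).

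Hair keratins were high in the combination library and low in the other 3 of day 21. Of 14 skin and hair follicle genes 13 were above additive, with a median of 3.16, and 13 had the combination library highest. Their sum was 15.7 TPM with vehicle, 39.6 with DC101, 37.8 with 4H2 and 788 with both, and 156 TPM in the library of 14 days of gefitinib. Krt35, a keratin of the hair shaft, was at 0.1, 0.8, 0 and 37.9 TPM (4.57), and Krt86, another, at 0, 0.9, 0.6 and 35.9 TPM (3.60). Keratins of the inner root sheath included Krt25 at 0.1, 0.8, 1.1 and 50.5 TPM (3.91), Krt27 at 0.2, 2.9, 1.7 and 79.4 TPM (3.20) and Krt28 at 0, 0.5, 0.2 and 35.5 TPM (4.34). Padi3, which citrullinates hair proteins, was at 1.5, 1.4, 0.4 and 11.5 TPM (3.22). Outside the list, Krt72 was at 0, 0.1, 0.2 and 39.3 TPM (4.93), Krt73 at 0, 0.6, 0.4 and 31.8 TPM (3.87), and the hair matrix protein gene Krtap11-1 at 0, 1.3, 0.3 and 68.5 TPM (4.54). Krt81 (3.98), Krt87 (4.39), Prr9 (4.09) and Fam25c (4.79) also had the combination highest. All of these were under 5 TPM in each of the other 3 day 21 libraries. The tumors grew under the skin, and the part of skin tissue in these values was not tested.

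One further gene at the top, Tmem254c, was at 195 TPM with vehicle, 213 with DC101, listed at 0 with 4H2 and at 27.4 with both (4.70). It belongs to a group of near-identical neighbors, so its reads are uncertain.

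B and plasma cell genes were the only immune cell list with a median at or above 1, at 1.04. Of 13, 7 were above additive, against 7.27% of all genes, and none below. With both antibodies 11 were highest. The sum over the 14 listed genes was 118 TPM with vehicle, 92.3 with DC101, 207 with 4H2 and 337 with both, and 588 TPM in the library of 14 days of gefitinib. The genes named in this paragraph were chosen after their values were seen. Cd79a, a signaling chain of the B cell receptor, was at 7.5, 3.5, 16.5 and 33.4 TPM (1.89), and Jchain, which joins secreted antibody, at 42.1, 28.5, 71.3 and 125 TPM (1.34). Pou2af1, a B cell transcription cofactor, was at 6.8, 3.7, 13.1 and 24.2 TPM (1.57). Cd22, an inhibitory receptor of B cells, was at 21, 18.9, 46.1 and 41.7 TPM, a departure of 0.00. With a pseudocount of 5 in place of 1 the list median was 0.64. Ccr7, the lymph node homing receptor of naive T cells, B cells and mature dendritic cells, was at 13.6, 8.3, 16.8 and 33 TPM (1.58).

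Of the 16 CD8 and cytotoxic genes 0 were above and 0 below additive, beside 7.27% and 3.09% of all genes. In a list of this size a count of 0 is near those shares. The list had a median of −0.02, beside 0.11 over all genes, and a range of −0.48 to 0.61. Their sum was 554 TPM with vehicle, 395 with DC101, 1787 with 4H2 and 1222 with both, a departure of −406 TPM on the linear scale from an additive 1628 TPM. Cd8a, the CD8 coreceptor, was at 30.6, 21.1, 56 and 34.2 TPM (−0.18). Gzmb, granzyme B, was at 9.1, 5.5, 15.3 and 8.3 TPM (−0.17), and Ifng, interferon gamma, at 10.1, 4.1, 14.5 and 6 TPM (−0.02). Each of the 3 was highest with 4H2 alone and lower with DC101 than without it, by a similar ratio in both backgrounds. The median DC101 difference over the list was −0.52 without 4H2 and −0.50 with it, and the median 4H2 difference 0.76 and 0.79. Ctsw, a protease of cytotoxic cells, stood highest at 7.1, 4.7, 11 and 11.9 TPM (0.61), with perforin, Prf1, at 16.6, 10.8, 13.9 and 12.8 TPM (0.47). Eomes, a transcription factor of effector and memory T cells, stood lowest at 25.5, 26.6, 23.7 and 17.4 TPM (−0.48).

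T cell receptor complex genes had a median of 0.11, with 0 of 15 outside the limits, beside 10.4% of all genes. The 16 listed genes summed to 516, 391, 962 and 757 TPM with vehicle, DC101, 4H2 and both. Cd5 was at 15.5, 11.9, 27.1 and 33.5 TPM (0.65), the proximal kinase Lck at 32.4, 21.9, 74.6 and 70.3 TPM (0.46), and the adhesion receptor Cd2 at 33.5, 32.9, 101 and 83.9 TPM (−0.24). None of 11 inhibitory checkpoint genes was outside the limits either, with a median of −0.05. Pdcd1, the target of 4H2, was at 27.5, 15.8, 40.6 and 31.4 TPM (0.40). Its ligand gene Cd274 was at 36, 23.1, 88.9 and 83 TPM (0.52). Tigit was at 22.7, 14.8, 31.5 and 28.1 TPM (0.43), Tox, a regulator of exhausted T cells, at 12.2, 10.1, 23.3 and 16.3 TPM (−0.24), and the ectonucleotidase Entpd1 at 99.1, 96, 62.6 and 49.2 TPM (−0.30).

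Of the 18 interferon gamma response genes 15 had a positive departure, beside 62.2% of all genes, with a median of 0.35 beside 0.11 for all genes. Above additive was 1 of the 18, near the 7.27% of all genes. That gene, Tgtp1, an interferon-induced GTPase with a near-identical neighbor that makes its reads uncertain, was at 351, 217, 52.2 and 68.6 TPM (1.08). Irgm1 was at 240, 171, 187 and 236 TPM (0.82). The T cell attractant Cxcl10 was at 67.5, 41.7, 168 and 89.8 TPM (−0.22), and the feedback inhibitor Socs1 at 108, 98.7, 78.1 and 60.5 TPM (−0.24). MHC class I presentation genes lay between −0.38 and 0.24 for all 14, with H2-D1 lowest at 4268, 4248, 4380 and 3338 TPM and Nlrc5, their transactivator, highest at 96.5, 74.8, 116 and 106 TPM. Tapbp (0.12) and Calr (−0.33) lay between them. Type I interferon response genes had a median of −0.03 and none outside the limits.

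**Figure D5:**
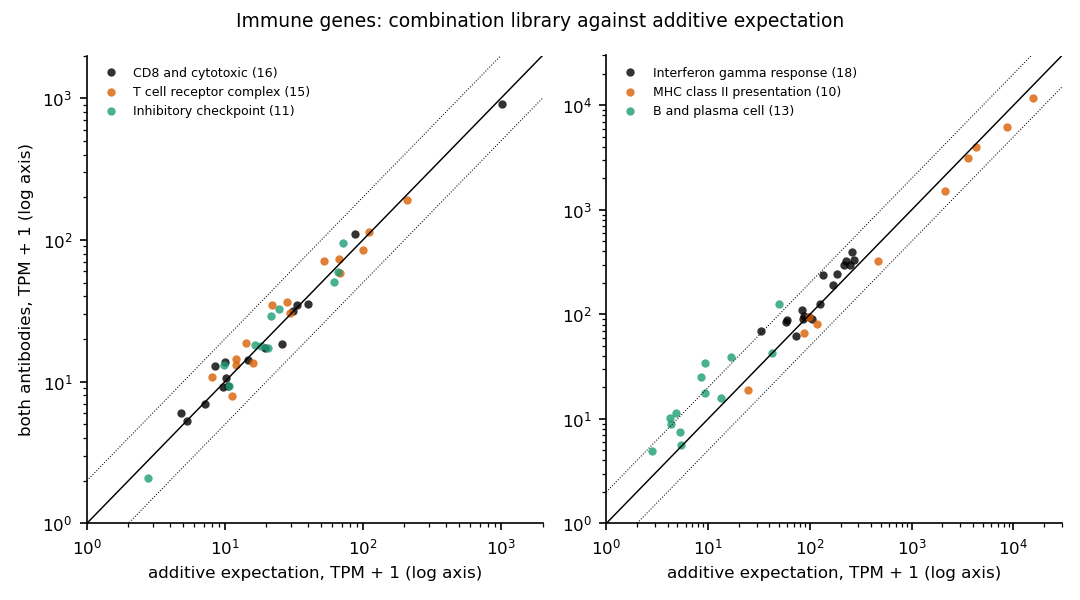
Level with both antibodies (y axis, TPM + 1, log axis) against the level predicted by adding the separate log2 differences (x axis, TPM + 1, log axis), 1 point per gene, for T cell lists (left) and for interferon gamma response, MHC class II and B cell lists (right); the solid line marks a departure of 0 and the dotted lines 1 and −1. T cell, cytotoxic and checkpoint genes lie between the dotted lines, and 7 of 13 B and plasma cell genes lie above the upper one.

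All 10 MHC class II presentation genes had a negative departure, with a median of −0.40 and none below additive. Over all genes 62.2% had a positive departure. H2-Ab1, a class II chain, was at 6261, 5728, 9361 and 6255 TPM with vehicle, DC101, 4H2 and both (−0.45), and the processing protease Ctss at 1523, 1344, 2397 and 1528 TPM (−0.47). For both genes the combination was near vehicle and 4H2 alone was highest. The peptide exchange genes H2-DMa, at 96.3, 97.6, 115 and 79.9 TPM, and H2-DMb1, at 529, 531, 466 and 323 TPM, each had −0.53, with the combination lowest. H2-DMb2 was at 46.5, 63.5, 63.8 and 64.9 TPM (−0.42). The median over macrophage and monocyte genes was −0.23, with 12 of 16 negative, none outside the limits, and sums of 9376, 9045, 17552 and 13084 TPM.

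Neutrophil genes had 6 measured members and a median of −0.57, none outside the limits. That median was −0.07 with a pseudocount of 0.1 and 0.06 without the filter. Csf3r, the G-CSF receptor, was at 19.6, 15.4, 50.4 and 27.3 TPM (−0.53), and Clec4d, a lectin receptor, at 5.5, 6.9, 21.1 and 16.6 TPM (−0.61). Ltf (−0.62, and 0.40 with a pseudocount of 0.1) was at most 0.5 TPM in both 4H2-treated libraries, and Mmp9, a gelatinase also made by other cells, was at 48.2, 25.2, 11.7 and 10.4 TPM (0.75). The mast cell proteases Mcpt4, at 7.4, 16, 17.4 and 18.6 TPM (−0.93), and Cma1, at 4, 9.9, 10.9 and 13.1 TPM (−0.88), were lowest with vehicle. Another, Tpsb2, was at 10.8, 8.9, 10 and 11.5 TPM (0.44), lowest with DC101. Hdc, the histamine-forming enzyme, was at 52.9, 74.8, 2 and 8 TPM (1.09), with the 4H2 library lowest, and had a linear departure of −15.9 TPM.

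Pan-endothelial genes had small departures. Of 20, 18 were positive, beside 62.2% of all genes, with a median of 0.37, none above or below additive, and sums of 704 TPM with vehicle, 541 with DC101, 527 with 4H2 and 521 with both. Kdr, which encodes the DC101 target, was at 19.6, 11.4, 10.7 and 9.3 TPM (0.55). Flt1, another VEGF receptor, was at 16.4, 9.8, 13.3 and 13.6 TPM (0.72), and Cldn5, the endothelial claudin, at 10.9, 8.8, 9.2 and 12.1 TPM (0.64). Endoglin, Eng, was at 107, 78.7, 104 and 90.7 TPM (0.24), and Erg, an endothelial transcription factor, at 10, 7.9, 12.8 and 9.9 TPM (−0.03). The median DC101 difference over the list was −0.31 without 4H2 and 0.03 with it. Vegfa, the ligand, was at 66.5, 52.4, 54 and 45.7 TPM (0.10).

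Tip cells lead new vessel sprouts, and genes induced by VEGF in them showed a larger difference. Of 13, 5 were above additive and 1 below, against 7.27% and 3.09% of all genes, with a median of 0.72. Prnd was at 27 TPM with vehicle, 5.4 with DC101, 6.8 with 4H2 and 4.2 with both (1.54), and Nid2, a basement membrane nidogen, at 35.2, 12.7, 20.6 and 21 TPM (1.43). For Prnd and Nid2 the vehicle library was highest and the other 3 lay within 2-fold of each other. The median DC101 difference over the list was −0.88 without 4H2 and −0.15 with it. Apln, the secreted ligand apelin, had the opposite sign at 53.8, 121, 17.8 and 12 TPM (−1.69), with DC101 alone highest. Nrp1, a VEGF coreceptor, was at 47.3, 59.6, 87.9 and 73.5 TPM (−0.58).

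Smooth muscle and pericyte genes were mixed, with 3 of 12 above additive and 2 below, beside 7.27% and 3.09% of all genes. Acta2, smooth muscle actin, and Tagln, transgelin, both chosen after their values were seen, were highest with vehicle at 188, 65.7, 33 and 30.2 TPM (1.38) and at 144, 56.8, 32.7 and 32.2 TPM (1.30). Des, also in this list, was lowest with vehicle (−1.95). The list summed to 745, 1015, 3391 and 3068 TPM, a linear departure of −593 TPM beside a median of 0.42 on the log2 scale. Fibroblast and matrix genes had a median of 0.27 with 1 of 18 above additive, near the share of all genes. Collagen genes had a median of 0.24 with none of 16 outside the limits.

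Red cell and nerve genes were high in the combination. Erythroid genes had 5 measured members, all highest with both antibodies among the day 21 libraries, a median of 1.57 and 3 above additive. Without the filter on mean TPM the median was 0.63, and the summed level was 200 TPM with both antibodies, 235 in untreated tumor at day 3 and 563 after 3 days of gefitinib. Hba-a1 was at 42.7, 26, 36.1 and 82.8 TPM (1.87), its near-identical copy Hba-a2 at 32, 31.4, 34.8 and 53.5 TPM (0.63), and Hbb-bs at 22.6, 13, 30.6 and 54.5 TPM (1.57). Globin copies share reads and are uncertain singly. Nerve and Schwann cell genes had a median of 0.88, with 4 of 9 above additive, beside 7.27% of all genes, and 7 highest with both.

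The classes of genes set out above were compared in libraries that the departure did not use. The mean TPM filter did use these libraries. From untreated tumor at day 3 to 14 days of gefitinib, the 596 genes with the 4H2 library low differed by a median of −1.27 on the log2 scale, beside 0.03 over all genes. Of the 596, 352 were at or below −1 and 46 at or above 1. Of all 13998 genes, 1780 were at or below −1 and 3173 at or above 1. The 333 genes with the vehicle library low differed by a median of 1.85, with 251 at or above 1 and 10 at or below −1. The 199 genes with the combination high differed by a median of 1.21, with 116 at or above 1 and 5 at or below −1. The 19 genes with the DC101 library high differed by a median of −1.89, with 13 at or below −1. The 179 genes with the vehicle library high differed by a median of 0.43, with 55 at or above 1 and 19 at or below −1. Medians were 1.33 for the 46 genes with the 4H2 library high and 0.85 for the 35 with the combination low. The 43 genes with the DC101 library low had a median of 0.88. Medians were thus below 0 for the 4H2-low and DC101-high classes and above 0 for the others.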

How the data were processed

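Per the labels' protocols, RNA from frozen tumors was depleted of ribosomal RNA and made into strand-specific libraries. The deposited table gives TPM per gene for 7 libraries, which the authors computed. The build is GRCm38.p6, per the submitters' processing notes, and the aligner and counter are not given in the sources used. Values carry 1 decimal, the smallest above 0 being 0.1 TPM, and hold no depth. Departures were computed on log2(TPM + 1) where a gene's mean TPM reached 1, using Python 3.11.15 with pandas 2.3.3 and numpy 2.4.6. The code was tested on simulated data built from genes with at least 10 TPM in all 4 libraries, so values near 0 TPM were not covered. With 1 library per group a departure of 1 in size stood in for a test. The members, the 50 gene lists and the named genes were chosen with earlier results of these data known. Named genes were the 15 highest and 15 lowest departures with at least 10 TPM in a day 21 library, up to 6 members on the side of the median and 2 on the other side from each of the 6 highest and 6 lowest lists, the drug targets, CD8 readouts, and the 2 highest and 2 lowest members of 7 T cell, interferon, MHC class I and vessel lists. Predicted, ribosomal protein, histone, receptor segment, small RNA and mitochondrial genes were left out of the first of these. Of the 731 list entries 672 were measured. Summed TPM of a list covers all its members in the deposited table, including those under the mean TPM filter. Promoters and gene positions came from RefSeq (GRCm38.p6), matched by symbol for 20473 of 21892 genes. A few genes are not reported here. Alternatives were other pseudocounts, filters, rescalings and a linear scale.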

Additional observations from a re-analysis of the deposited data

Results flagged for a closer look

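For 8 of the genes named by the rule on high and low departures, list members and drug targets, the 2 DC101 differences, without and with 4H2, were each at least 2-fold and of opposite direction, and for 4 the same held of the 4H2 differences without and with DC101. With 1 library per group neither set was tested. Of all 13998 genes, 13 were up with DC101 without 4H2 and down in its presence, and 24 the reverse. For 4H2 without and with DC101 these counts were 7 and 13. A reversal of this kind requires a departure of at least 2 in size, and many of the genes were named for large departures. The difference between the 2 DC101 differences was −2.98 for Ngfr, −2.98 for Ppp1r3c and −2.79 for Ppp1r1a, where DC101 went with a higher level without 4H2 and a lower level with it. It was 5.90 for Krt17, 5.21 for Sprr1a, 4.27 for Sprr2a2, 3.76 for Cldn4 and 2.32 for Ctse, where DC101 went with a lower level without 4H2 and a higher level with it. For 4H2, the reversal was −2.98 for Ngfr, 5.90 for Krt17, 4.79 for Fam25c and 4.39 for Krt87. Ngfr and Krt17 thus reversed on both axes of the design.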

How the results depend on the processing

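No paired analysis was possible because each group is 1 library. For the same reason no library could be left out, and none of these values has an error. The genes above additive numbered 447 and those below 222 with a pseudocount of 5, 254 and 96 with a limit of 2 on the log2 scale, and 156 and 127 among genes with at least 10 TPM in all 4 libraries. Genes above additive made up between 66.8% and 71.0% of those outside the limits under 6 other settings, beside 70.1%. The count with an expectation below 0 TPM was 116 with a pseudocount of 0.1, 423 with 5, 889 without a filter and 80 where the mean TPM reached 5, and the 4H2-low share of genes above additive was 73.4% under that last filter. The B and plasma cell median was 0.64 with a pseudocount of 5, 0.98 without a filter, 0.93 as a mean over members and 0.93 minus the median of all genes. The alveolar type 2 median was 0.89 and the adipocyte median −0.68 with a pseudocount of 5. The proliferation median was 1.05 with a pseudocount of 0.1 and 1.07 as a mean over members. On the linear scale the sums for the T cell receptor complex and alveolar type 2 lists were −80.3 and −1933 TPM, and the signs of Mylk4 (0.2 TPM), Hdc (−15.9), Lamp3 (−94.2), Slc34a2 (−98.1) and Egfr (−62.2) were reversed. The cause of these changes was not tested. Depth is unknown, so how precisely genes near 0 TPM were measured could not be stated. The alternatives without genes of 7 tissue lists (970 above, 400 below), with at least 10 TPM throughout, and minus the median of all genes were chosen after seeing the data.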

Other observations

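Of the 18 measured cholesterol and lipid synthesis genes 5 were above additive, beside 7.27% of all genes, and none below. Their median departure was 0.55, and 15 of the 18 were lowest with 4H2. Fasn, fatty acid synthase, was at 729 TPM with vehicle, 712 with DC101, 48.6 with 4H2 and 101 with both, a departure of 1.07. Of 13 NRF2 and antioxidant genes 3 were above additive, among them Gsta4 at 336, 325, 12.4 and 33.1 TPM (1.40). The genes of this section were chosen after their values were seen.

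Matrix proteases and inhibitors had 3 of 17 above additive, beside 7.27% of all genes. Mmp11, a protease of tumor stroma, was at 56.7, 32.2, 8.3 and 19.4 TPM (1.93), and Mmp3 at 38, 39.6, 20.9 and 64 TPM (1.51). Slpi, a secreted antiprotease, was at 57, 14, 12.9 and 34.4 TPM (3.30), with vehicle highest, and at 170 TPM after 14 days of gefitinib. Fscn1, the actin bundler of mature dendritic cells and some tumor cells, was at 130, 75.3, 167 and 216 TPM (1.14). Siglech, a marker of plasmacytoid dendritic cells, was at 1.6, 4.7, 7.4 and 3.2 TPM (−2.13).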
